A study of Mus musculus with 18 samples.

Results

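miR-92b-3p (mmu-miR-92b-3p) is the mature strand cut from the 3′ side of the Mir92b hairpin. It was 1 of 1978 mature miRNAs in a small RNA sequencing table of brain cell fractions, of which 1054 had at least 1 count. The miRNA was selected on its low counts in the microglia fraction of mutant mice relative to wild-type mice. Every value of miR-92b-3p that involves the microglia libraries is therefore given as a description and is no test of it. The fractions were astrocytes, microglia and neurons from brains of untreated C57BL/6 mice aged 10 months, either wild type (WT) or homozygous for the Atxn2-CAG100-KIN allele (KIN), which carries an expanded CAG repeat in the endogenous Atxn2 gene and models spinocerebellar ataxia type 2. Each of the 6 groups held 3 libraries. The study describes 3 mice of each genotype, with all 3 fractions isolated from the same brain. The labels do not say which libraries share a brain, so neurons and astrocytes were compared without pairing. According to the methods of the study, the whole brain was dissociated, microglia were taken with CD11b beads, astrocytes with ACSA-2 beads from what was left, and neurons as the unbound cells after removal of other cells, including CD31-positive ones. The knock-in is carried by every cell of the KIN animals and not by a single cell type.

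miRNAs guide Argonaute proteins to messenger RNAs, mainly through the seed, the bases near the 5′ end that pair with the target. miR-92b belongs to the miR-25, miR-32, miR-92, miR-363 and miR-367 family, whose members share a seed and therefore predicted targets. In the developing mouse neocortex miR-92b is known as a miRNA of neural progenitors that represses Eomes (Tbr2), a transcription factor of intermediate progenitors. Its relative miR-92a is made from the Mir17-92 and Mir106a-363 clusters, which are active in dividing cells and in blood cell lineages, whereas Mir92b is a hairpin gene by itself.

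The 6 mature miRNAs of the table with this seed are shown to make clear how little separates miR-92b-3p from miR-92a-3p, the relative with which it is compared throughout. Sequences were read 5′ to 3′ from the deposited table and matched to GRCm39 and RefSeq, and capitals mark the seed, bases 2 to 8.
miR-92b-3p: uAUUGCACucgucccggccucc
miR-92a-3p: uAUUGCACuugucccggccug
miR-25-3p: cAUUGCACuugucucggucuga
miR-32-5p: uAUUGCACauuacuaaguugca
miR-363-3p: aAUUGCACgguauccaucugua
miR-367-3p: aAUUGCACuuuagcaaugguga
Over their 21 shared positions, miR-92b-3p and miR-92a-3p differed at 2 bases, C10U and C21G, counted from the 5′ end of miR-92b-3p with its base written first. miR-25-3p differed from miR-92b-3p at 6 of 22 bases, miR-32-5p at 11 and miR-363-3p at 12.

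Mature miR-92b-3p lies at chr3:89134433-89134454 (GRCm39, minus strand) inside the Mir92b hairpin of 83 bases at chr3:89134423-89134505, printed here with the mature strand, bases 52 to 73, in capitals because counts of both the strand and the hairpin are used.
Mir92b hairpin: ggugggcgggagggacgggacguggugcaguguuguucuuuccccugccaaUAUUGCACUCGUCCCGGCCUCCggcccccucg
No other annotated gene overlapped the hairpin. The 3 nearest gene starts were those of Mtx1, a protein of mitochondrial import, of Muc1, a mucin, and of Thbs3, a thrombospondin. Mtx1 lies on the same strand and starts 110 bp from the start of Mir92b, with 27 bp between the end of the hairpin and the start of Mtx1. Fragments of these 3 genes were nearly absent from the small RNA libraries, with 13 counts for Mtx1, 10 for Thbs3 and 0 for Muc1 over all 18 libraries.

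Libraries held 1211118 to 4316748 counts, with the lowest totals in neurons. Mature miRNAs took 5.05% to 10.3% of the counts in astrocytes, 5.09% to 8.45% in microglia and 0.96% to 2.13% in neurons, so a level relative to all counts and a share of mature miRNA counts answer different questions, and both are given. miR-142a-3p, miR-142a-5p and miR-223-3p, which mark microglia and other myeloid cells, summed to between 5.28% and 7.00% of mature miRNA counts in microglia libraries, 0.445% to 2.36% in neurons and at most 0.0531% in astrocytes. The 5 neuronal markers, among them miR-124-3p and miR-128-3p, summed to 0.548% to 1.25% in neurons but to 1.25% to 3.89% in astrocytes. All 5 were called lower in WT neurons than in WT astrocytes, as were 212 of the 362 mature miRNAs tested. The neural lineage markers miR-9-5p and miR-9-3p summed to 10.0% to 19.2% in neurons and to 7.04% to 11.6% in astrocytes. The neuron libraries are therefore named by their label, and the oligodendrocyte, choroid plexus and endothelial markers in the astrocyte libraries reached up to 4.94%, 3.16% and 0.729%. Xist was checked because the study described WT and KIN animals paired by sex, with male pairs and a female pair. It stood at 1.27 to 2.13 CPM in the 3 KIN libraries numbered 1, where CPM is counts scaled to a library total of 1e6. In the other 15 libraries it stood at 7.59 to 36.3 CPM. This differs from that description, so KIN and WT may be unbalanced for sex in each fraction. KIN against WT values of miR-92b-3p are also given below without that library. Atxn2 itself gave 79 counts over all libraries, too few to check the labels in a library of short fragments.

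Astrocytes held by far the most miR-92b-3p. Its counts in WT astrocytes were 1672, 2112 and 1895, which are 532, 531 and 575 CPM on library totals. In KIN astrocytes they were 2196, 2361 and 2291, or 639, 658 and 616 CPM. The 6 astrocyte libraries lay above 530 CPM, while no microglia or neuron library exceeded 52.9 CPM. WT microglia held 175, 22 and 194 counts, which are 50.4, 6.33 and 52.9 CPM. KIN microglia held 7, 11 and 17 counts, or 2.22, 2.55 and 3.96 CPM. WT microglia replicate 2 thus stood far below the other 2 WT microglia libraries and yet above all 3 KIN ones. WT neurons held 20, 50 and 23 counts, which are 16.5, 25.6 and 15.1 CPM. KIN neurons held 70, 46 and 61 counts, or 29.9, 19.0 and 25.2 CPM, and overlapped with WT neurons.

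**Figure D1:**
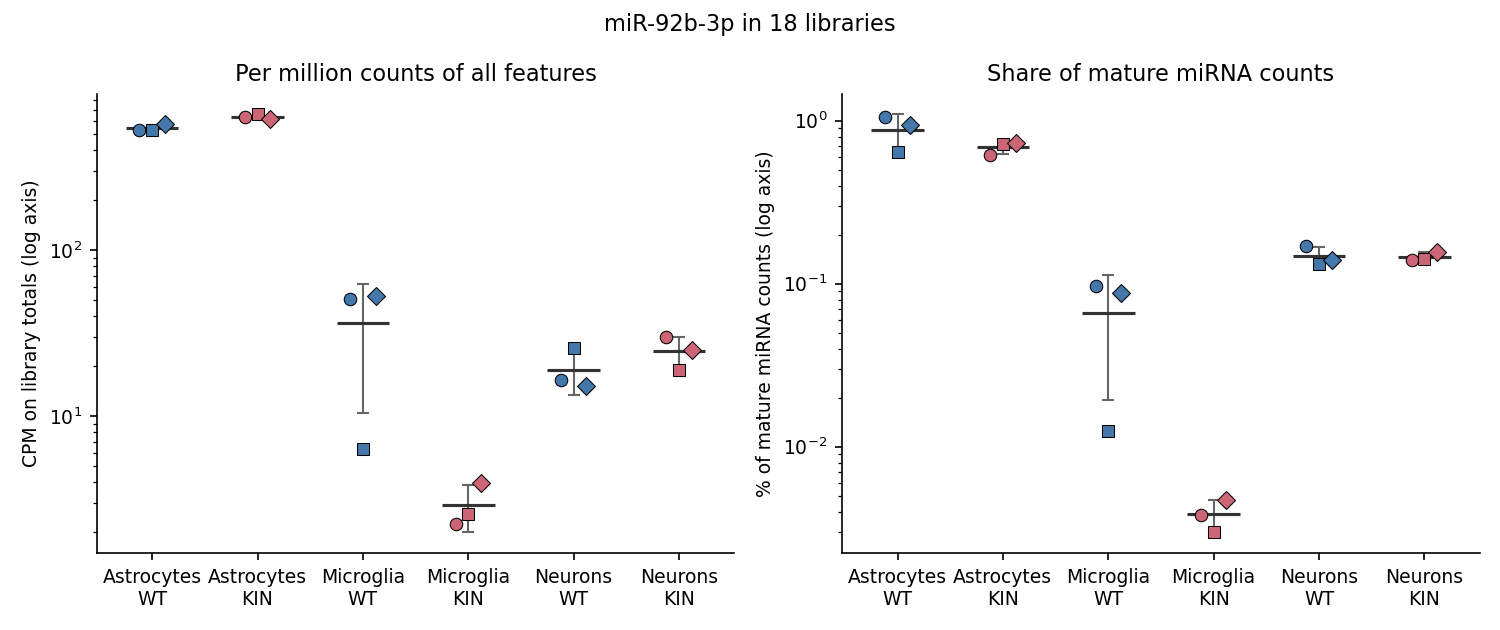
miR-92b-3p in each of the 18 libraries, as CPM on library totals (left) and as % of mature miRNA counts (right), on log axes; circles, squares and diamonds are replicates 1, 2 and 3, horizontal lines the mean of 3 libraries and bars 1 SD. Astrocytes lie at 531 to 658 CPM, KIN microglia at 2.22 to 3.96 CPM, and WT microglia replicate 2 at 6.33 CPM lies between the other WT microglia libraries and the KIN ones.

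By mean CPM the order of the groups was KIN astrocytes (637 ± 21.2, SD, n = 3), WT astrocytes (546 ± 25.5), WT microglia (36.5 ± 26.2), KIN neurons (24.7 ± 5.48), WT neurons (19.0 ± 5.69) and KIN microglia (2.91 ± 0.92). WT microglia overlapped with KIN neurons, and KIN neurons with WT neurons, so these neighbours in the order did not differ beyond their spread. As a share of mature miRNA counts the order changed. WT astrocytes led with 0.879% ± 0.215 and overlapped with KIN astrocytes at 0.689% ± 0.0628. WT neurons (0.148% ± 0.0208) and KIN neurons (0.147% ± 0.00891) also overlapped, and both lay above WT microglia (0.0661% ± 0.0467) and KIN microglia (0.00385% ± 0.000861). By rank among mature miRNAs of a library, where 1 is the most counted, miR-92b-3p stood between 25 and 41 in astrocytes, 61 and 78 in neurons, 92 and 185 in WT microglia and 231 and 265 in KIN microglia. In the WT microglia replicate 2 library the share was 0.0125%, with an exact 95% binomial interval of 0.00781% to 0.0189% that covers counting error only.

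The fraction difference that could be tested was that between neurons and astrocytes. miR-92b-3p was called lower in neurons in both genotypes, at a log2 fold change of -5.03 ± 0.36 in WT (SE, edgeR adjusted p = 0.00064) and -4.95 ± 0.23 in KIN (edgeR adjusted p = 5.8e-21). All 3 neuron libraries lay below all 3 astrocyte libraries in each genotype. Of all features tested, 28.7% were called in the WT comparison and 46.3% in the KIN comparison, where a feature is called when its log2 fold change is 1 or more in size and its adjusted p does not exceed 0.05. Lower levels in neurons were common among mature miRNAs, since the median log2 fold change over 362 tested in WT was -2.66, and 58 of them had a lower value than miR-92b-3p. Scaled on mature miRNAs alone, the log2 fold change of miR-92b-3p was -2.98 in WT and -2.30 in KIN. The ratio of mean levels moved in the same way, from 28.7 on CPM to 5.96 on the share of mature miRNA counts in WT. In bulk fractions, fewer cells that contain the miRNA and less of it per cell cannot be told apart.

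KIN and WT astrocytes differed little in miR-92b-3p. The log2 fold change was 0.35 ± 0.10 (SE, edgeR adjusted p = 0.0482), below the fold needed for a call, and all 3 KIN libraries lay above all 3 WT libraries on CPM. Without KIN replicate 1, the library with low Xist, the log2 fold change was 0.38 ± 0.11. Of 5694 features tested, 466 (8.18%) were called. Other mature miRNAs moved further in the same direction, with a median log2 fold change of 0.58 over 418 tested and 281 of them above miR-92b-3p. With scaling on mature miRNAs the sign turned to -0.32 ± 0.24 (edgeR adjusted p = 0.297), and on the share of mature miRNA counts the 2 genotypes overlapped. The direction in astrocytes therefore depends on what the level is relative to.

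In neurons the log2 fold change of miR-92b-3p was 0.36 ± 0.40 (SE, edgeR adjusted p = 0.918). No feature of 4535 was called in neurons by edgeR (0%), with 197 at an unadjusted p under 0.05, and DESeq2 called 0 with 124 at that level. The 95% interval of the log2 fold change, -0.42 to 1.13, holds changes of either sign. Without KIN replicate 1, the library with low Xist, the value was 0.22 ± 0.47. The difference between the KIN effect in neurons and that in astrocytes was -0.11 ± 0.38 (edgeR adjusted p = 0.957), and 0 of 7084 features were called for it by edgeR or DESeq2, with 598 and 429 at an unadjusted p under 0.05.

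Microglia gave the contrast on which the miRNA was selected. The log2 fold change between KIN and WT was -3.34 ± 0.66 (SE), and mean CPM was 12.6-fold higher in WT. Without WT replicate 2 the value was -3.81 ± 0.31, and without KIN replicate 1, the library with low Xist, it was -3.26 ± 0.78. Of 4940 features tested, 215 (4.35%) were called, among them 32 mature miRNAs in the higher and 8 in the lower direction. The 8 include miR-92b-3p, which was selected on this contrast, so its place among them is no test of it. Among 382 mature miRNAs tested, 4 had a lower value and 377 a higher one.

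**Figure D2:**
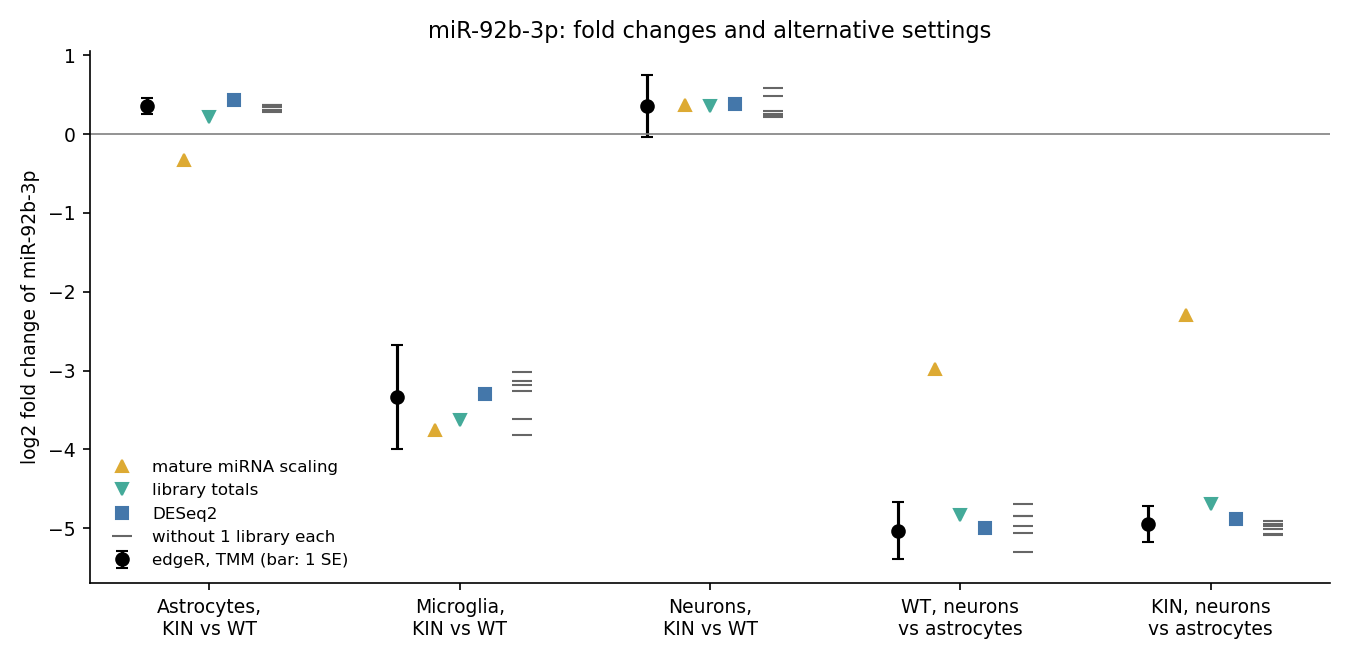
Log2 fold change of miR-92b-3p (vertical axis) in 5 comparisons; black points are the edgeR values with 1 SE, triangles and squares other scalings and DESeq2, and grey dashes the values without 1 library each. The microglia value of -3.34 stays between -3.81 and -3.02 when 1 library is left out, while the astrocyte value of 0.35 changes sign to -0.32 with scaling on mature miRNAs.

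The others of these 8 were miR-96-5p, miR-183-5p and miR-182-5p, a cluster known from sensory epithelia, miR-429-3p, miR-200a-3p and miR-200b-3p, known from epithelia and the olfactory system, and the neuronal miR-124-3p. Their log2 fold changes in microglia ran from -4.96 ± 0.64 for miR-96-5p to -1.28 ± 0.31 for miR-124-3p. In WT microglia replicate 2, all 8 stood at their lowest among the 3 WT libraries. How many of all mature miRNAs were lowest there was not counted. That library also had fewer features with at least 1 count, 17884 against 27713 and 29541 in WT replicates 1 and 3. 6 of these others were also called lower in KIN astrocytes, where 9 mature miRNAs were, with miR-200a-3p at -6.96 ± 0.72 there. miR-92b-3p did not move with those 6 in astrocytes, where its log2 fold change was 0.35 ± 0.10, and neither did miR-124-3p at -0.33 ± 0.37.

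**Figure D3:**
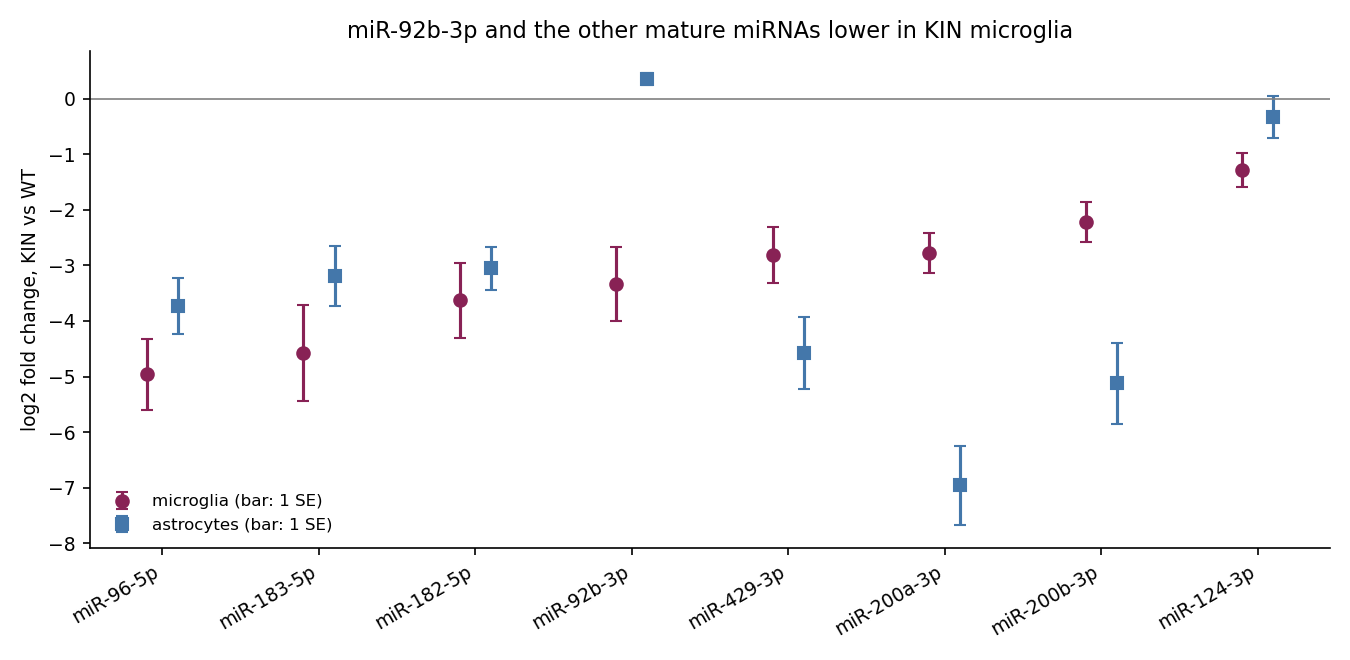
Log2 fold change between KIN and WT with 1 SE for miR-92b-3p, which was selected on the microglia contrast, and the other mature miRNAs called lower in KIN microglia, in microglia (circles) and in astrocytes (squares). miR-96-5p, miR-183-5p, miR-182-5p, miR-429-3p, miR-200a-3p and miR-200b-3p lie below 0 in both fractions, whereas miR-92b-3p lies at -3.34 in microglia and at 0.35 in astrocytes.

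Of the 7 marker lists of other cell types, those of neurons, of the neural lineage and of the olfactory bulb were lower in KIN microglia without overlap on CPM. The 5 neuronal markers summed to 170, 64.8 and 168 CPM in WT microglia and to 51.8, 62.5 and 58.7 CPM in KIN microglia. miR-9-5p and miR-9-3p, which mark the neural lineage including astrocytes, summed to 211, 82.3 and 245 CPM in WT and to 59.1, 68.6 and 60.1 CPM in KIN. WT replicate 2 was again the lowest WT library in both lists, and all markers of both lists were detected in every microglia library. The 8 markers of olfactory bulb and sensory epithelium summed to 92.2, 52.4 and 80.2 CPM in WT and to 9.85, 22.2 and 15.8 CPM in KIN. On CPM the other 4 lists did not follow miR-92b-3p. Oligodendrocyte markers stood at 31.1 to 33.5 CPM in WT and 28.6 to 43.3 CPM in KIN, and choroid plexus and ependyma markers at 222 to 293 CPM and 237 to 344 CPM. Endothelial markers were at 215, 265 and 251 CPM in WT, where replicate 2 was the highest, and at 118, 208 and 236 CPM in KIN. Erythroid markers were higher in KIN, at 28.6 to 131 CPM against 17.3 to 22.2 CPM. As a share of mature miRNA counts, endothelial markers were lower in KIN without overlap, at 0.202% to 0.282% against 0.416% to 0.522%. Oligodendrocyte markers were too, at 0.0488% to 0.0518% against 0.0560% to 0.0624%. The choroid plexus and ependyma share overlapped, and the erythroid share was higher in KIN. The microglial markers stood at 2835 to 3389 CPM in WT and 3097 to 5914 CPM in KIN. The part of these markers' cells in the miR-92b-3p values was not tested. miR-92b-3p counts were 26.8%, 8.56% and 24.3% of those of miR-9-5p in WT microglia and 4.22%, 4.10% and 7.26% in KIN microglia. In astrocytes this figure was 8.98% ± 2.04 in WT and 10.0% ± 0.081 in KIN, and it ran from 6.68% to 10.6% over the astrocyte libraries. WT microglia replicates 1 and 3 lay above that range. WT replicate 2 and KIN replicate 3 lay within it, and KIN replicates 1 and 2 below it. The microglia values are a description, and what sets this figure was not tested.

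Among miRNAs with its seed, miR-92b-3p was the main one in astrocytes alone. It made up 86.6%, 82.8% and 85.4% of the family's counts in WT astrocytes and 77.4%, 78.2% and 76.0% in KIN astrocytes. In microglia its share was 13.5%, 2.37% and 13.8% in WT and 0.902%, 0.691% and 1.11% in KIN. In neurons it was 22.7%, 14.6% and 12.8% in WT and 10.2%, 11.1% and 11.7% in KIN. miR-92a-3p took 66.4% ± 4.47 of the family in WT microglia, 64.9% ± 4.79 in KIN microglia, 65.2% ± 4.03 in WT neurons and 72.2% ± 1.70 in KIN neurons, against 10.0% ± 0.70 in WT astrocytes. The whole family ranged from 0.421% of mature miRNA counts in KIN microglia replicate 1 to 1.38% in KIN neurons replicate 1, a far narrower range than that of miR-92b-3p itself.

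**Figure D4:**
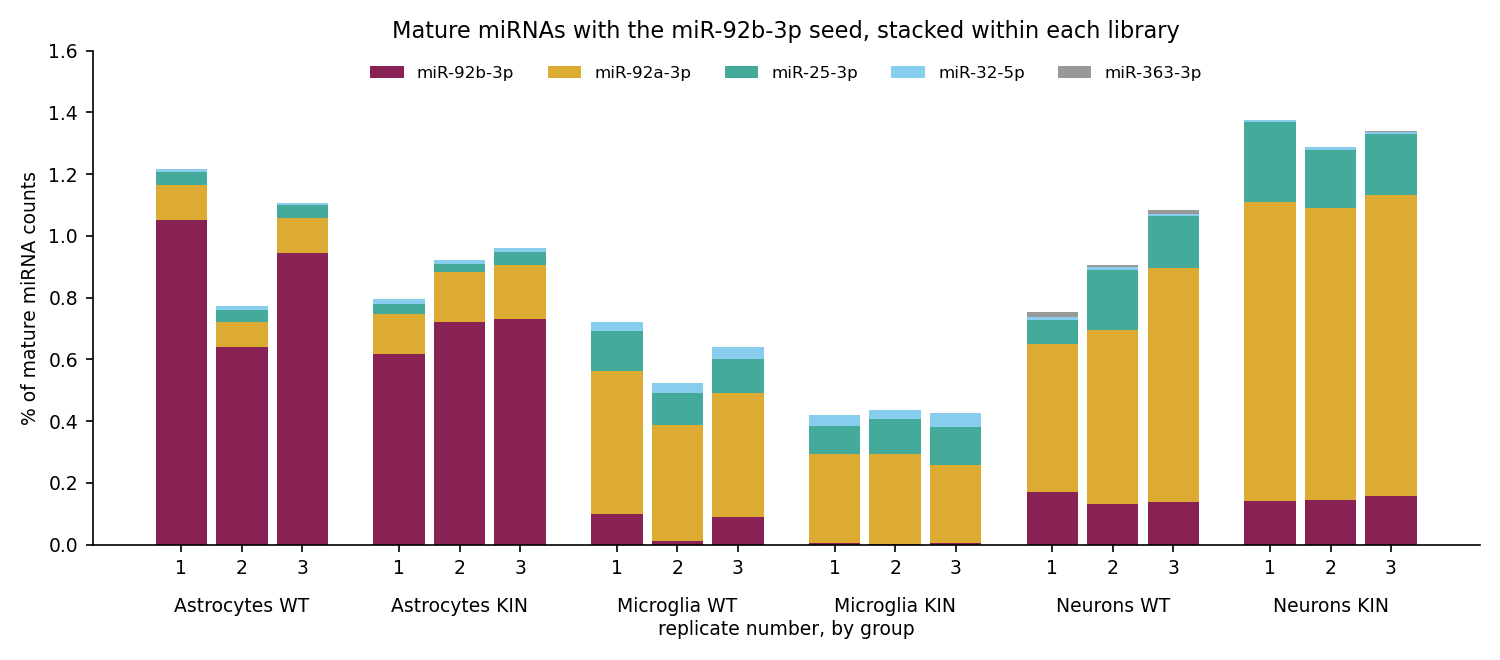
Mature miRNAs with the miR-92b-3p seed as % of mature miRNA counts (vertical axis), stacked for each of the 18 libraries; miR-367-3p had 0 counts in every library and is not drawn. miR-92b-3p fills 76.0% to 86.6% of the bar in astrocytes, and miR-92a-3p most of the bar in microglia and neurons.

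miR-92a-3p, the near-identical relative, was called higher in KIN than in WT astrocytes at 1.28 ± 0.16 on the log2 scale (SE, edgeR adjusted p = 0.00434), from 178, 269 and 228 counts in WT to 458, 529 and 550 in KIN. In neurons its log2 fold change was 1.04 ± 0.38 (edgeR adjusted p = 0.917). In microglia it was 0.12 ± 0.19, with 836, 663 and 887 counts in WT and 534, 1057 and 910 in KIN, so the low miR-92b-3p of KIN microglia went with no shift of miR-92a-3p that exceeded its error. Between WT neurons and WT astrocytes the log2 fold change of miR-92a-3p was 0.09 ± 0.39 (edgeR adjusted p = 0.864), where that of miR-92b-3p was -5.03.

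miR-25-3p, from the Mir106b-25 cluster, was called in none of the tests, with log2 fold changes between KIN and WT of 0.37 ± 0.27 in astrocytes (edgeR adjusted p = 0.367) and 0.80 ± 0.55 in neurons (edgeR adjusted p = 0.917), and a value of 0.67 ± 0.25 in microglia. miR-32-5p, hosted by Tmem245, had 68 counts in WT and 145 in KIN astrocytes, a log2 fold change that missed the threshold (edgeR adjusted p = 0.0563) and was called lower in neurons than in astrocytes, at -2.51 ± 0.62 in WT (edgeR adjusted p = 0.0197) and -3.48 ± 0.46 in KIN (edgeR adjusted p = 2.2e-08). miR-363-3p had at most 2 counts in any library and was not tested, and miR-367-3p, known from pluripotent cells, had 0 counts in all 18, which allows up to 3 counts in a library.

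The ratio of miR-92b-3p to miR-92a-3p does not depend on library scaling. In astrocytes the ratio was 9.39, 7.85 and 8.31 in WT and 4.79, 4.46 and 4.17 in KIN, a log2 difference of -0.93 without overlap. An exact two-sided permutation test gave p = 0.1, the smallest that 3 against 3 libraries allow, and 0.133 after adjustment over 16 ratio tests. In neurons it was 0.357, 0.235 and 0.184 in WT and 0.145, 0.150 and 0.161 in KIN, a log2 difference of -0.71 without overlap (exact permutation p = 0.1, adjusted p = 0.133). In microglia the ratio was 0.209, 0.0332 and 0.219 in WT and 0.0131, 0.0104 and 0.0187 in KIN, with a log2 difference of -3.07, or 8.42-fold lower. In each fraction all 3 KIN libraries thus had a lower ratio than all 3 WT libraries, though the microglia contrast is the one on which the miRNA was selected. In astrocytes the numerator was at 0.35 and the denominator at 1.28 on the log2 scale. In neurons they were at 0.36 ± 0.40 and 1.04 ± 0.38 (SE), whereas in microglia the numerator was at -3.34 and the denominator at 0.12.

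**Figure D5:**
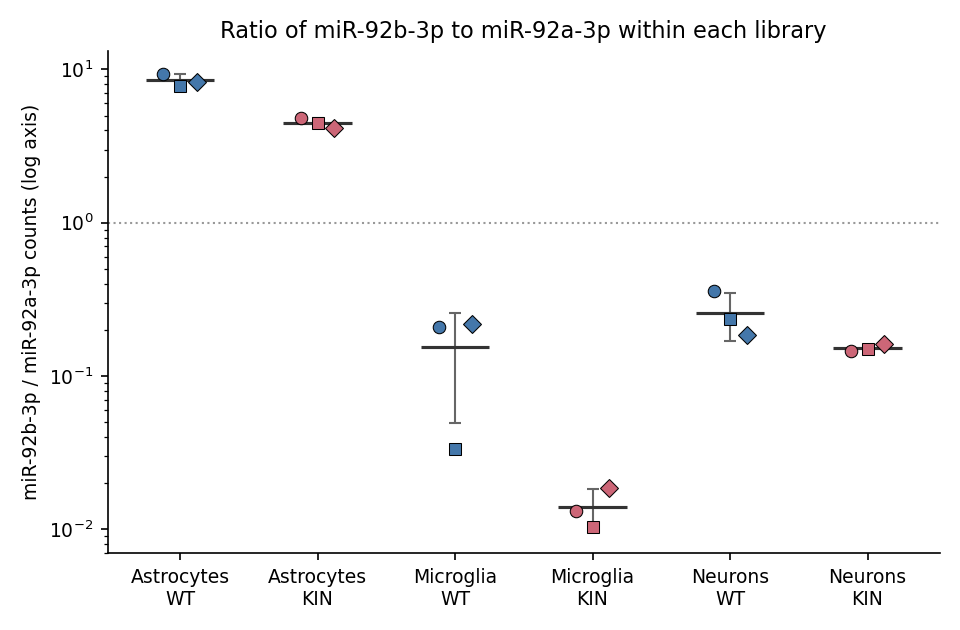
Ratio of miR-92b-3p to miR-92a-3p counts within each of the 18 libraries on a log axis; circles, squares and diamonds are replicates 1, 2 and 3, horizontal lines the mean of 3 libraries, bars 1 SD, and the dotted line equal counts. Astrocytes lie above 1 at 4.17 to 9.39, microglia and neurons below 1, and KIN lies below WT in each fraction.

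Counts on the hairpin changed in the same directions as those of the mature strand. The deposited counts give no position on the hairpin, so reads counted there may include variants of the mature strand itself. Reads counted on the Mir92b hairpin transcript, which had not been placed on a mature miRNA, numbered 529, 665 and 568 in WT astrocytes and 810, 879 and 823 in KIN astrocytes. WT microglia held 48, 8 and 56 of them and KIN microglia 3, 3 and 10, so WT replicate 2 stood apart here as well. The log2 fold change of the hairpin was 0.60 ± 0.12 in astrocytes (edgeR adjusted p = 0.0189), below the fold for a call, -2.66 ± 0.69 in microglia and 0.44 ± 0.45 in neurons (edgeR adjusted p = 0.917). Between neurons and astrocytes it was -5.11 ± 0.41 in WT (edgeR adjusted p = 0.000887) and -5.18 ± 0.27 in KIN (edgeR adjusted p = 2.7e-19). Hairpin counts were 31.0% ± 0.92 of mature counts in WT astrocytes and 36.7% ± 0.68 in KIN astrocytes, without overlap (exact permutation p = 0.1, adjusted p = 0.133). In neurons the figure was 28.7% ± 2.26 in WT and 31.0% ± 4.25 in KIN, which overlapped. For miR-92a-3p the counts on its hairpins were 37.5% ± 1.36 of mature counts in WT and 39.7% ± 1.23 in KIN astrocytes.

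miR-92b-5p, the strand from the other arm of the hairpin, was rare. It had 12, 21 and 5 counts in WT astrocytes and 18, 19 and 18 in KIN astrocytes, which is 0.659% ± 0.369 and 0.803% ± 0.017 of the 3p counts. In every microglia and neuron library it had at most 3 counts. Its log2 fold change between KIN and WT astrocytes was 0.63 ± 0.44 (edgeR adjusted p = 0.336).

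The mature miRNAs most like miR-92b-3p across the 18 libraries were found by correlation. Likeness was Pearson's r of log2(CPM + 0.5) among 456 mature miRNAs with at least 5 counts in at least 3 libraries, given as a description because libraries of a fraction share cells and depth. miR-9b-3p (r = 0.96), miR-124-3p (r = 0.96) and miR-127-3p (r = 0.95) led the list, followed by miR-129-5p (0.94), miR-34b-3p (0.93) and miR-195a-5p (0.92). miR-300-3p, miR-34c-3p, miR-129b-3p and miR-3059-5p had r = 0.91 each. miR-129b-3p and miR-3059-5p had 0 CPM in KIN microglia and both neuron groups. Their means in WT astrocytes were 3.21 and 1.39 CPM, so their r rests on few counts. The least alike were the myeloid miR-142a-5p (-0.89), miR-155-5p (-0.86) and miR-142a-3p (-0.81). miR-155-5p, an inflammatory miRNA of macrophages, stood at 10.7 ± 1.32 CPM in WT and 50.4 ± 15.9 CPM in KIN microglia. Of the seed family, miR-92a-3p had r = -0.41, place 414 of 456, and miR-25-3p r = -0.37.

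The likeness was not the same within each fraction. Within the 6 microglia libraries, where WT and KIN lie apart, r was 0.996 for miR-124-3p and 0.95 for miR-9b-3p. Within the 6 astrocyte libraries it was -0.30 and 0.43. It was higher there for miR-34b-3p (0.89), miR-34c-3p (0.82) and miR-195a-5p (0.61), and the rest of the 10 lay between -0.0035 and 0.35. Within neurons r ran from 0.55 for miR-127-3p to 0.93 for miR-195a-5p, leaving out miR-129b-3p and miR-3059-5p, which had no counts there. miR-9b-3p had a log2 fold change between KIN and WT of -1.36 in microglia and 0.42 in astrocytes, with levels of 33.1 ± 18.8 CPM in WT and 10.7 ± 3.78 CPM in KIN microglia. Of the 10 most alike, miR-34b-3p and miR-34c-3p were called higher in KIN astrocytes, with log2 fold changes of 1.07 and 1.12. Of the 418 mature miRNAs tested there, 47 were called higher. Both miR-34 strands had a negative value in microglia, -1.61 and -1.31. The list was drawn from libraries that include the microglia on which miR-92b-3p was selected. Low values in KIN microglia are thus partly built into it, and those given here are a description.

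Fragments of messenger RNAs known from the literature as targets of the family were too few to compare. Eomes had 12 counts over the 18 libraries, none of them in astrocytes, and the cell cycle inhibitor Cdkn1c had 7. Bcl2l11, which promotes apoptosis, had 14, the integrin Itga5 15 and the transcription factor Klf4 28. Fbxw7, which selects proteins for degradation, had 58 counts and the transcription factor Klf2 56. Among these genes a transcript of Klf2 passed the filter on low counts, in microglia and in neurons, and it was called in neither. No difference in these genes was detectable at this depth.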

How the data were processed

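Small RNA libraries of 3 cell fractions from WT and KIN brains were analysed. The authors trimmed reads with Cutadapt 4.6 (minimum length 20), placed them with Bowtie2 2.4.4 in local mode in successive rounds (mature miRNAs, tRNAs, piRNAs, Ensembl noncoding and coding transcripts, mm39) and counted with HTSeq 2.0.2 without strand or mapping quality limits. The deposited counts are whole reads per feature. A read with few mismatches could be placed on miR-92a-3p or miR-92b-3p, so the lower of the pair is uncertain. The kit adds molecular identifiers, but collapsing was not described for these libraries, so intervals cover counting error only. The authors' fold changes and p-values and 36 other columns of library values were not used.

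Groups came from titles. The labels call the number a biological replicate but tie it to no brain. Features that reached 5 counts in 2 or more libraries were tested with edgeR 4.0.16 (R 4.3.3, quasi-likelihood, TMM, Benjamini-Hochberg over all features), fitted for the libraries of each comparison and tested on simulated data. Ratios were compared by exact permutation. DESeq2 1.42.0, other scalings and filters, a replicate block and leaving out libraries were tried. Deviations of same-numbered WT neuron and astrocyte libraries correlated at 0.149, 0.313 and 0.106, and neuron library 3 matched astrocyte library 1 best. The miRNA and all lists were chosen with earlier results of these data known. Named were miR-92b-3p, its arm, hairpin, seed family and neighbours, the 10 most and 3 least alike miRNAs, literature targets (of which 1 is not reported here), Xist and cell type markers. The miRNAs lower in KIN microglia were named after their values were seen.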

Additional observations from a re-analysis of the deposited data

Results flagged for a closer look

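The KIN effect on miR-92b-3p had opposite signs in the glial fractions. All 3 KIN astrocyte libraries lay above all 3 WT astrocyte libraries on CPM, and all 3 KIN microglia libraries lay below all 3 WT microglia libraries. The effect in microglia minus that in astrocytes was -3.66 ± 0.62 on the log2 scale (SE), and this difference was not tested because the microglia values had chosen the miRNA. In astrocytes the sign was that of levels relative to all counts and turned with scaling on mature miRNAs.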

How the results depend on the processing

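The microglia value of miR-92b-3p, its values between neurons and astrocytes and its ratios to miR-92a-3p kept their sign under every alternative. For the neuron ratio this holds in sign only. With the share of all mature miRNA counts in place of the ratio, the log2 difference was -0.0027 in neurons and -0.32 in astrocytes. WT and KIN overlapped in both. Leaving out 1 library gave log2 values of -3.81 to -3.02 in microglia, 0.28 to 0.38 in astrocytes, 0.22 to 0.59 in neurons, -5.30 to -4.69 between WT neurons and astrocytes and -5.09 to -4.90 between KIN ones. The ratio to miR-92a-3p gave -3.97 to -2.61, -0.98 to -0.85 and -0.93 to -0.45 in microglia, astrocytes and neurons. The astrocyte value turned to -0.32 with scaling on mature miRNAs. Over the alternatives, its edgeR or DESeq2 adjusted p ran from 0.0182 to 0.66.

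The effect in neurons minus that in astrocytes changed sign in 12 of 19 alternatives, which were added after seeing the data. It was 0.037 by DESeq2, 0.13 on library totals, 0.63 with scaling on mature miRNAs, 0.27 without a filter, 0.11 in a fit of 18 libraries and -0.16 to 0.45 without 1 library, and the cause was not tested.

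With the replicate block, the log2 fold change of miR-92b-3p was -5.07 between WT neurons and astrocytes, -4.95 between KIN ones, 0.36 in astrocytes and 0.38 in neurons, and none of these calls changed. In microglia, the contrast on which the miRNA was selected, it was -3.01. Within a fraction the labels link WT and KIN samples only by a number, while the study describes littermates of the same sex as pairs. For KIN neurons and astrocytes the same-number correlations were -0.058, 0.170 and 0.011, while Xist was low in all 3 fractions of KIN number 1, a hint from the data that this number marks 1 brain. The block took the called features from 215 to 49 in microglia and from 466 to 691 in astrocytes.

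Of the 10 most alike miRNAs, 6 remained after scaling to the mature miRNA total, 6 with log2(CPM + 5), 0 within astrocytes, 1 within microglia and 1 within neurons, and 6 to 10 without 1 library.

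Counts of called features were less stable than the value of miR-92b-3p. Without 1 library they ran from 41 to 1527 in astrocytes (1527 without WT replicate 2) and from 0 to 940 in microglia (0 without WT replicate 1, 940 without WT replicate 2). In neurons they ran from 0 to 52 (52 without WT replicate 1), and were 75 without a filter and 26 with scaling on mature miRNAs. They ran from 911 to 1940 between WT neurons and astrocytes. Scaling on mature miRNAs called 1251 in astrocytes, 364 in microglia, 2908 and 4108 between neurons and astrocytes of WT and KIN. The share of calls in the higher direction went with it from 21.9% to 1.28% in astrocytes, 32.6% to 7.69% in microglia, 35.7% to 92.5% between WT neurons and astrocytes and 48.0% to 93.5% between KIN ones. On library totals it was 11.8%, 19.3%, 46.1% and 55.6%, and by DESeq2 33.5% in astrocytes. In a fit of 18 libraries the counts were 159 in astrocytes, 334 in microglia and 2674 between WT neurons and astrocytes. In microglia DESeq2 called 343, no filter 426 and the stricter filter 93, which called 1493 between KIN neurons and astrocytes. Depth limits KIN microglia, where 7 to 17 reads carry each value.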
